A study of Mus musculus with 6 samples.

Results

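The keratins Krt7, Krt8, Krt18 and Krt19, the filament proteins of single-layered (simple) epithelia, were followed in keratinocytes at the front of healing mouse skin wounds. Each probe set annotated to 1 of these 4 symbols alone was taken, which gave 4 probe sets, 1 per gene, out of 21789 single-gene probe sets and 35556 in all. No probe set naming several genes named a member, and none was named for a keratin pseudogene of these 4 genes. The genes were chosen by the diabetic minus normal difference of Krt8 on these same arrays, and Krt18, Krt7 and Krt19 were added as its family. The diabetic against normal values of the 4 genes are therefore given as a description, without a test.

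RNA came from keratinocytes cut out by laser from the tip of the epithelial tongue of skin wounds harvested on day 3. The diabetic group (3 arrays) was of mice fed a diet high in fat and fructose from 8 weeks of age for 16 weeks, and the normal group (3 arrays) was of mice kept on a control diet for the same time. No label gives a strain or an engineered allele, and diabetes rests on diet alone in this model. Cells from the sections of a sample were pooled, and the titles number them as biological replicates without naming the mouse behind each, so a p here reflects the variation among these arrays, which may be technical in part. In bulk material of this kind, fewer cells of a type and less RNA per cell cannot be told apart.

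Keratins form filaments only as pairs of a type I and a type II protein, and a keratin without a partner is degraded. Krt8 and Krt7 are type II keratins and Krt18 and Krt19 are type I. Krt8 pairs mainly with Krt18, while Krt7 and Krt19 are common partners in ducts and glands. In adult skin, stratified epidermis relies on Krt5 with Krt14 below and Krt1 with Krt10 above. Simple keratins are found there in Merkel cells, the touch receptors of the epidermis, in sweat glands and, for Krt19, in the hair follicle bulge.

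Krt7, Krt8 and Krt18 lie on chromosome 15. In the RefSeq gene table (GRCm38.p6) Krt8 and Krt18 are adjacent protein-coding genes although their products are of opposite types, and Krt19 lies on chromosome 11, beside Krt15 and Krt9. The 250 bases before the annotated start were read from the RefSeq promoter table (GRCm38.p6) for Krt8, Krt18 and Krt7, and they are shown because the first pair are neighbouring partner genes whose signals differed in behaviour on these arrays. Capitals mark CACCTG, an E-box that Snai1 and Zeb1 can bind, and AGGTCA, a half-site of retinoid and other nuclear receptors. Each sequence is given 5′ to 3′ on the strand of the gene.
Krt8, chr15:102004343-102004592, minus strand: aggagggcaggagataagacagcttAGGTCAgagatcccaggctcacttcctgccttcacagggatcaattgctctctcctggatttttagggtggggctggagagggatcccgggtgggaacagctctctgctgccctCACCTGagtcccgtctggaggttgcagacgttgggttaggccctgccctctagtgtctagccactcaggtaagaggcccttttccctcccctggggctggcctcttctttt
Krt18, chr15:102027966-102028215, plus strand: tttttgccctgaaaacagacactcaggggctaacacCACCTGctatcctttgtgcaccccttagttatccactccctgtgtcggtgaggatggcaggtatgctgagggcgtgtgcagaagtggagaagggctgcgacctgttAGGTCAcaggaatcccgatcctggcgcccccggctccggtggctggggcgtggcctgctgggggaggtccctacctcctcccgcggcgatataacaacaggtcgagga
Krt7, chr15:101412153-101412402, plus strand: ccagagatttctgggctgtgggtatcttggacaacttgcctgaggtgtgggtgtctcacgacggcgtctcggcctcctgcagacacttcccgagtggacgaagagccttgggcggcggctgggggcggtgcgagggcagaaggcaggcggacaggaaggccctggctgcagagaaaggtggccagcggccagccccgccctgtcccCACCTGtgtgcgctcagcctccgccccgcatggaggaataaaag

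The E-box letters CACCTG, searched on both strands, occurred 1 time in each of the 3 windows, and in 17.2% of all 32851 promoter windows of this length. AGGTCA occurred 1 time before Krt8 and 1 time before Krt18 but not before Krt7, against 14.0% of all windows. The AP-1 letters TGANTCA were in none of the 3 windows and in 6.75% of all. The GC box GGGCGG matched 4 times before Krt7 and in neither other window, against 32.7% of all. None of the 4 letter strings overlapped another in these windows. These matches describe the letters and not binding.

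The arrays were dim, so each value was read against a background limit, the 95th percentile of 1242 chemosensory receptor genes on the same array. That limit lay between 1.98 and 2.14 on the log2 scale, and between 27.4% and 36.3% of the 19938 genes exceeded it on an array. Diabetic replicates 1 and 2 had the largest shares (35.2% and 36.3%), and no other array passed 29.9%. Of all 19938 genes, 3494 were above it on all 6 arrays and 10243 on none, the counts to set beside those of the marker lists below. Of 14 basal keratinocyte markers, 3 (Itgb4, Lamb3 and Sfn) were above it on all 6 arrays and 5 on none. E-cadherin (Cdh1), by which the cells were located, was under it on every array, and Krt5 and Krt14 were each above it on 2 diabetic and 0 normal arrays. For Krt14 the count on diabetic replicate 2 (2.05, limit 2.01) rests on the limit, since normal replicate 2 read 2.07 under a limit of 2.10. Cdh1, Krt5 and Krt14 were thus near background, which is not particular to these markers given the counts over all genes.

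Krt8 was higher on average in diabetic keratinocytes, but the groups overlapped and diabetic replicate 2 held much of the difference. Its log2 signal was 4.27, 6.06 and 3.86 on diabetic replicates 1, 2 and 3, and 2.95, 3.93 and 3.76 on normal replicates 1, 2 and 3. Diabetic replicate 2 stood apart at the top, normal replicate 1 was lowest, and the other 4 arrays lay between 3.76 and 4.27, with diabetic replicate 3 under normal replicate 2. Group means were 4.73 ± 1.17 (SD, n = 3) and 3.55 ± 0.52, a difference of 1.19 on the log2 scale (limma SE 0.45), or 2.28-fold. Of all genes, 13 (0.0652%), Krt8 included, were higher in diabetic samples by at least this much. The difference between the group medians was 0.51. Without diabetic replicate 2 the difference of means was 0.52 (SE 0.28), and without normal replicate 1 it was 0.89 (SE 0.50).

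The signal of Krt8 on diabetic replicate 2 was 5.71 times the mean of the normal arrays (a mean of log2 values), against 1.66 times on diabetic replicate 1 and 1.25 times on diabetic replicate 3. It exceeded the next array by 1.79 on the log2 scale. Of 19938 genes, 4 were highest on that array by at least 1, and Krt8 had the widest gap. The other 3, named after their values were seen, were the small nucleolar RNA gene Snord42b (gap 1.52), the microRNA gene Mir99b (1.19) and Wdr83os (1.12). By this measure 16 genes stood out upwards on diabetic replicate 1 and between 2 and 6 on each of the other 4 arrays. Diabetic replicate 2 also had the largest share of genes above the background limit (36.3%), whose part in the Krt8 value was not tested. A range over the 6 arrays smaller than that of Krt8 (3.11) was found for 99.9% of genes. On every array Krt8 was above the background limit, by 0.87 on normal replicate 1 and by up to 4.05 on diabetic replicate 2.

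**Figure D1:**
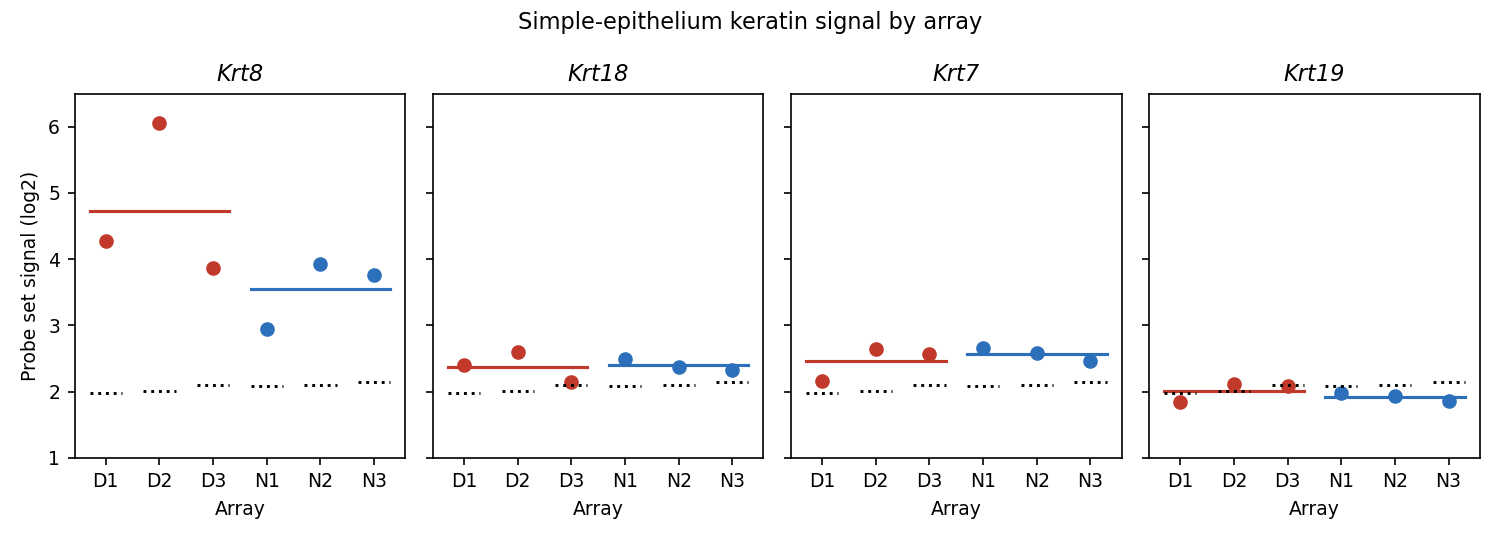
Log2 probe set signal (y axis) of Krt8, Krt18, Krt7 and Krt19 on each array (x axis, D1 to D3 diabetic in red, N1 to N3 normal in blue). Horizontal lines are group means and dotted marks the background limit of each array. Krt8 reaches 6.06 on D2 and is at 2.95 on N1, while Krt18 and Krt7 stay within 0.63 above the limit.

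Krt18, the main type I partner of Krt8, had nearly the same mean in both groups. Its signal was 2.40, 2.59 and 2.15 in diabetic samples against 2.49, 2.38 and 2.33 in normal samples. The highest and the lowest value both belonged to the diabetic group, which enclosed the normal one. Means were 2.38 ± 0.22 (SD, n = 3) and 2.40 ± 0.09, a difference of -0.02 (SE 0.14). Krt18 exceeded the background limit on all 6 arrays, by 0.04 to 0.58, so its level is close to a bound.

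Krt7, the other type II member, was at 2.16, 2.65 and 2.57 in diabetic samples against 2.66, 2.58 and 2.47 in normal samples. Only diabetic replicate 1 stood below the rest, and the groups overlapped. The means of 2.46 ± 0.26 (SD, n = 3) and 2.57 ± 0.10 differed by -0.11 (SE 0.15), which was 0.04 without diabetic replicate 1. Krt7 was above the limit on all 6 arrays, by 0.18 to 0.63.

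Krt19, the type I keratin of ducts and of the hair follicle bulge, was at background. It was at 1.85, 2.11 and 2.08 in diabetic samples against 1.97, 1.93 and 1.86 in normal samples, with overlap between the groups. The difference was 0.09 (SE 0.12), from 2.01 ± 0.14 (SD, n = 3) against 1.92 ± 0.06. Only diabetic replicate 2 exceeded the limit, by 0.10. With so little signal over background, the value is a bound on the array and says little about RNA.

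None of the 4 members had groups that did not overlap, where 10.7% of all genes did. On all of Krt8, Krt18 and Krt19 the highest array was diabetic replicate 2, and on Krt7 that array was second to normal replicate 1 (2.65 and 2.66). In all 4 genes the SD among diabetic arrays was larger than among normal arrays, for example 0.22 against 0.09 for Krt18 and 1.17 against 0.52 for Krt8. The share of all genes with a larger diabetic SD was not computed, so this is not read as particular to the keratins.

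**Figure D2:**
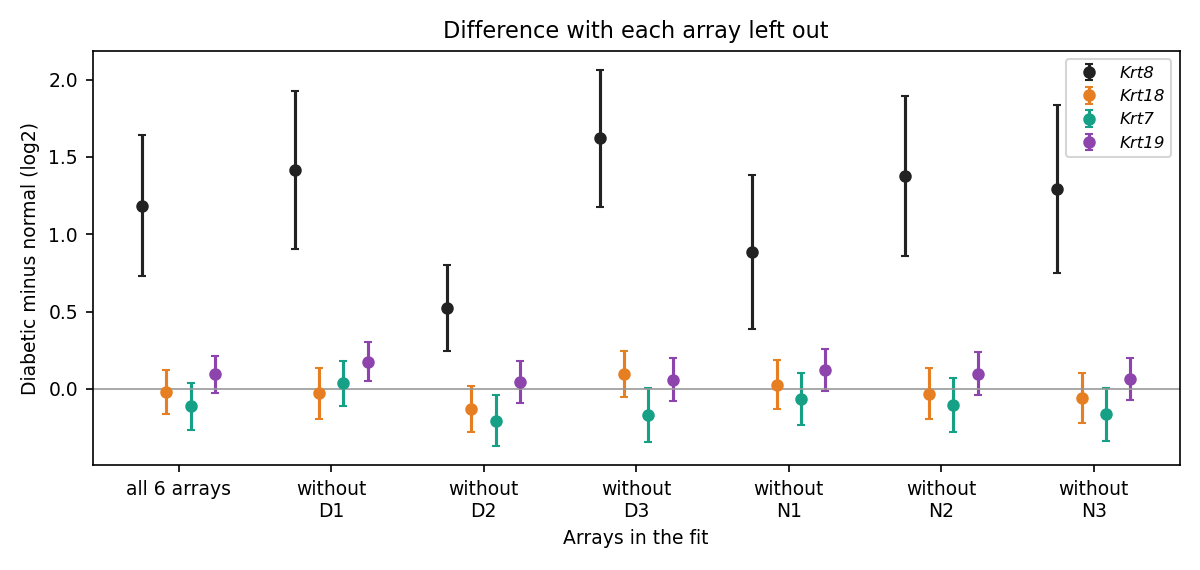
Diabetic minus normal difference (y axis, log2) of the 4 keratins with all 6 arrays and with each array left out (x axis, D diabetic, N normal). Points are differences and bars limma standard errors. Krt8 ranges from 0.52 without D2 to 1.62 without D3, and the other 3 stay between -0.20 and 0.18.

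Krt8 was then set beside its partners on the same arrays. Because Krt8 was picked for its difference, an excess over partners with differences near 0 restates that choice and is a description. A change is meant here and not a level, since 2 probe sets cannot be compared in level. The Krt8 change less the Krt18 change was 1.21 on the log2 scale (SE between arrays 0.66, n = 3 per group). Relative to the normal mean, the Krt8 signal less that of Krt18 was 0.73, 2.32 and 0.57 in diabetic samples against -0.69, 0.40 and 0.29 in normal samples. These groups did not overlap, with 0.57 the lowest diabetic and 0.40 the highest normal value. Among single genes 10.7% did not overlap, and the share among gene pairs was not computed. The 0.57 came from diabetic replicate 3, where Krt18 had its lowest signal (2.15, 0.04 above the limit), while the Krt8 groups alone overlapped. Against Krt19 the excess was 1.09 (SE 0.72), with diabetic arrays at 0.80, 2.32 and 0.15 and overlap with the normal arrays. Without diabetic replicate 2 the excess over Krt18 was 0.65 and that over Krt19 was 0.48. Because Krt18 and Krt19 lay near background, where an array can understate differences in RNA, these excesses compare signals alone.

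Over the 6 arrays the signals of Krt8 and Krt18 had a Pearson correlation of 0.46 (Spearman 0.37), which became -0.43 over the 5 arrays without diabetic replicate 2. For Krt8 with Krt19 it was 0.47, and -0.33 without that array. Krt7 and Krt19 had the highest correlation among the 6 pairs of members, 0.68 over all arrays and 0.64 without diabetic replicate 2. These are descriptions over few arrays, which share any difference in array quality.

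The genes whose pattern over the 6 arrays was most like that of Krt8 were sought among 267 genes above the background limit on at least 1 array and ranging over at least 1 on the log2 scale. By Pearson correlation they were Fignl2 (0.98), the kinesin gene Kifc2 (0.96), the cilium assembly gene Ccdc40 (0.95), the potassium channel gene Kcnk15 (0.94) and the squalene epoxidase gene Sqle (0.93). Fignl2 was at 2.80, 3.39 and 2.54 in diabetic samples against 2.37, 2.54 and 2.54 in normal samples, so its peak on diabetic replicate 2 was smaller than that of Krt8. Without diabetic replicate 2 the correlations were 0.90 for Fignl2, 0.97 for Kifc2, 0.70 for Ccdc40, 0.82 for Kcnk15 and 0.76 for Sqle. A correlation of at least 0.9 was reached by 8 of the 267 genes.

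For Krt18 the search covered 4011 genes ranging over at least 0.5. The nearest were Fam166c (0.99), Prdm15 (0.97), the respiratory chain gene Ndufv3 (0.97), the glutathione transferase gene Gstt3 (0.96) and the elastase gene Cela3a (0.95). All 5 were lowest on diabetic replicate 3 and highest on diabetic replicate 2, as Krt18 was. Correlations of at least 0.9 numbered 21 and those of -0.9 or below numbered 29. No gene stood in the lists of both keratins.

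**Figure D3:**
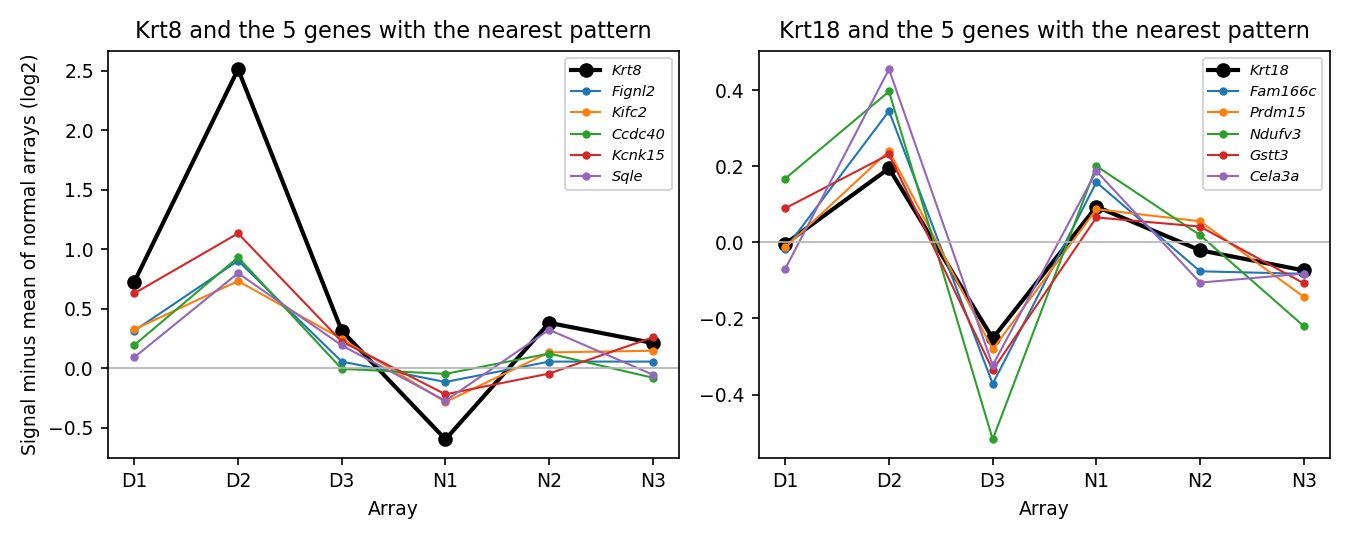
Log2 signal minus the mean of the normal arrays (y axis) on each array (x axis, D diabetic, N normal) for Krt8 (left) and Krt18 (right) in black, each with the 5 genes of highest Pearson correlation in colour. Lines only join the values of a gene. Krt8 reaches 2.51 on D2, and Krt18 lies between -0.25 and 0.19.

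Markers of cells that can carry simple keratins were read on the same arrays, as sums of linear signal over each list. Of 14 Merkel cell genes, 2 (Atoh1 and Gfi1) exceeded the limit on every array and 3 never did. Krt20, the keratin that defines Merkel cells in skin, was at 1.65, 1.44 and 1.63 on the diabetic arrays and above the limit on 1 normal array alone (2.36 on normal replicate 3). The Merkel sum ran from 56.9 to 58.6 in diabetic and from 55.1 to 60.3 in normal samples, and diabetic replicate 2 had the lowest diabetic sum.

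Among 12 sweat gland genes only Aqp5, the water channel of the secretory coil, was above the limit on all arrays, while 5 genes never exceeded it, Foxa1 and Slc12a2 among them. The sum ran from 53.3 to 61.4 in diabetic and from 51.9 to 56.6 in normal samples, with its highest value on diabetic replicate 2. Aqp5 was at 3.22, 3.98 and 3.49 in diabetic samples against 3.46, 3.12 and 3.35 in normal samples, highest on diabetic replicate 2. As the brightest gene of the list on every array it is part of the sum, so its peak is not a separate observation. Of the 12, 3 were higher and 9 lower in diabetic samples, with a median difference of -0.04. The difference of Aqp5 was 0.26 (SE 0.20, limma adjusted p 0.911), and 0.05 without diabetic replicate 2. Atp1b1, a sodium pump subunit, differed by 0.51 (SE 0.15, adjusted p 0.780), from 2.99, 2.72 and 2.48 in the diabetic group to 2.21, 2.33 and 2.13 in the normal group. Slc12a2, a chloride cotransporter gene, differed by -0.20 (SE 0.11) and Atp6v1b1, a proton pump subunit gene, by -0.25 (SE 0.16), the latter by -0.12 without diabetic replicate 1 or without normal replicate 1. The part of gland signal in the Krt8 values was not tested.

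General simple epithelium genes were read next. Epcam, an adhesion protein of simple epithelia, was under the limit on all arrays. Of 17 measured genes, Cldn3 and Tjp3 were above it on all 6 arrays and 6 genes never were, beside 3494 and 10243 of all 19938 genes. The sum ran from 67.2 to 71.3 in diabetic and from 66.1 to 69.3 in normal samples. Of the 17, 12 were higher and 5 lower in diabetic samples, with a median difference of 0.02. Tjp3, a tight junction scaffold, was at 2.66, 2.98 and 2.87 in diabetic samples against 2.31, 2.57 and 2.52 in normal samples. Its difference was 0.37 (SE 0.14, limma adjusted p 0.839). Cdh1 differed the other way, by -0.16 (SE 0.11) without overlap, and was under the limit on all arrays. Esrp1 and Esrp2 differed by 0.14 and 0.12. Of 16 hair follicle stem cell markers, 8 exceeded the limit on every array and 4 never did. Their sum ran from 74.4 to 80.5 in diabetic and from 70.9 to 77.5 in normal samples. Differences were 9 higher and 7 lower with a median of 0.05, which was -0.04 without normal replicate 1. Those of smallest p were Lhx2 (0.25), Sox9 (0.23), Cd34 (0.13) and Lgr6 (0.17), while Krt15 was at -0.12. Cd34 was under the limit on all arrays, and Lhx2 was above it on 1 diabetic array alone.

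Markers of other cells of the wound were read in the same way. The skeletal muscle sum was 96.0, 90.9 and 88.0 in diabetic samples against 82.2, 85.7 and 87.8 in normal samples. These did not overlap, but the nearest values were 88.0 and 87.8, and 10.7% of all single genes did not overlap either. Of the 17 muscle genes, 13 were higher and 4 lower in diabetic samples, with a median difference of 0.08. On every array 6 of them exceeded the limit, and 6 never did. The fibroblast sum was 45.2, 53.3 and 49.2 against 43.3, 45.7 and 45.7, highest on diabetic replicate 2, with Col1a1, Col1a2 and Col3a1 above the limit throughout and 3 of 9 genes on no array. Of these 9, 6 were higher and 3 lower in diabetic samples, with a median difference of 0.13, or 0.02 without normal replicate 2. For basal keratinocyte markers the range was 59.7 to 68.2 in diabetic and 61.6 to 66.6 in normal samples, highest on diabetic replicate 2. On that array Itgb4, which is part of this sum, was at 3.59, against 2.77 to 3.07 on the other arrays. Endothelial sums were 30.7 to 32.2 and 31.3 to 32.0, with 1 of 8 genes over the limit on every array and 3 never over it. Immune sums were 34.6 to 36.1 and 33.5 to 41.2, with 0 of 11 over it on every array and 8 never over it. The part of these cells in the Krt8 difference was not tested.

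**Figure D4:**
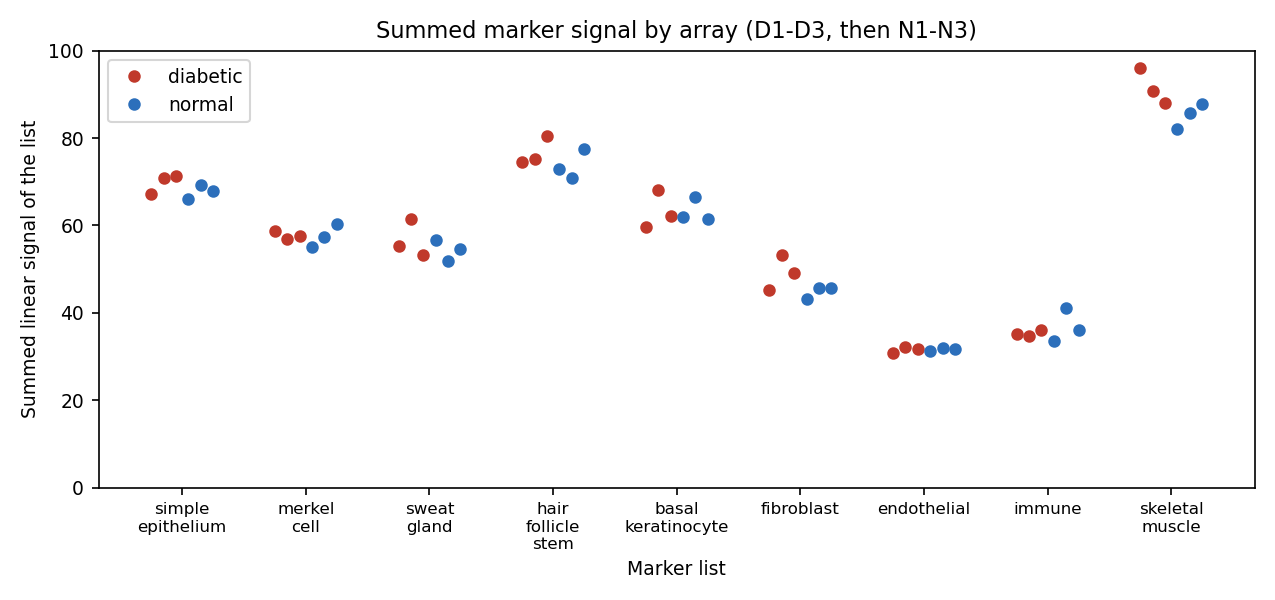
Summed linear signal (y axis, antilog of the log2 values) of each marker list (x axis) on the 3 diabetic (red) and 3 normal (blue) arrays, drawn in replicate order. The skeletal muscle sums narrowly do not overlap (88.0 to 96.0 against 82.2 to 87.8), and the Merkel sums overlap.

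Genes that bind, modify, regulate or resemble simple keratins were compared between diabetic and normal samples in the limma fit over all genes. No gene of 19938 passed an adjusted p under 0.05 (0%), while 1109 (5.56%) had an unadjusted p under 0.05, 526 higher (2.64%) and 583 lower (2.92%), and 1037 did so in an ordinary linear model. In the 5 lists together, 105 genes were measured, 51 higher and 54 lower in diabetic samples. Of these 105, 0 passed the adjusted threshold and 4 had an unadjusted p under 0.05, namely Hspa8, Tgm2, Snai1 and Trp63. Median differences of the lists lay between -0.03 and 0.04, beside a median below 0.01 in size over all genes.

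Linker genes, which tie keratin filaments to desmosomes and other structures, had 10 of 18 higher and 8 lower, with 0 at an unadjusted p under 0.05 and a median difference of 0.02. Desmoplakin (Dsp), the desmosomal anchor of keratins, was at 2.22, 2.42 and 2.10 in diabetic samples against 2.61, 2.65 and 2.36 in normal samples, which gave a difference of -0.30 (SE 0.14, limma adjusted p 0.893). Plakoglobin (Jup) differed by 0.25 (SE 0.13) and plectin (Plec), a cross-linker of filaments, by 0.26 (SE 0.15). Plec was highest on diabetic replicate 2, at 2.39, where the other diabetic samples read 1.89 and 1.91 and the normal samples 1.65 to 1.97, and without that array its difference was 0.10. Fbf1, a keratin-binding protein of junctions and centrioles, differed by -0.22 (SE 0.12).

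Of 25 measured genes that phosphorylate, cleave, fold or otherwise modify simple keratins, 14 were higher and 11 lower, with a median of 0.04. The chaperone gene Hspa8 was at 6.64, 4.97 and 3.81 in diabetic samples against 3.01, 4.84 and 2.36 in normal samples. Its difference was 1.73 (SE 0.66, limma adjusted p 0.839), and its highest array was diabetic replicate 1 and not replicate 2. This value is that of the brightest of 3 probe sets; with their mean the difference was 0.78, and without diabetic replicate 1 it was 0.98. Tgm2, a transglutaminase that cross-links Krt8 in liver inclusions, was at 2.73, 2.87 and 2.74 in diabetic samples against 2.10, 2.61 and 2.51 in normal samples, which gave a difference of 0.37 (SE 0.15, adjusted p 0.867), or 0.22 without normal replicate 1. The kinase gene Akt1 differed by 0.23 (SE 0.16) and the phosphatase gene Ppp2ca by 0.17 (SE 0.12), the latter under the limit on all arrays. Without diabetic replicate 3 these 2 were 0.06 and 0.04.

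Among 28 measured transcription factors of epithelial keratin genes, 10 were higher and 18 lower, with a median of -0.03. Snai1 is a repressor of epithelial genes that can bind the letters CACCTG. Its binding to the promoters above was not measured. Snai1 was at 2.72, 3.34 and 3.13 in diabetic samples against 2.73, 2.40 and 2.45 in normal samples. It differed by 0.53 (SE 0.17, limma adjusted p 0.780), with diabetic replicate 1 just under normal replicate 1. Zeb1, which can bind the same letters, differed by -0.09 (SE 0.17). Trp63, which specifies stratified epithelium, had a difference of -0.31 (SE 0.14, adjusted p 0.887) and was above the limit on 0 diabetic arrays and 1 normal array. The AP-1 gene Junb differed by -0.29 (SE 0.13) without overlap between the groups, and the retinoic acid receptor gene Rara by -0.27 (SE 0.13; -0.16 without diabetic replicate 2), under the limit on all arrays. Klf4 and Klf5, Krüppel-like factors of epithelia, differed by 0.17 and -0.15, and Foxa1 by -0.05.

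Other keratins measured by the fit, 19 genes, were 10 higher and 9 lower with a median of 0.01 and 0 at an unadjusted p under 0.05. The wound keratin Krt16 differed by -0.26 (SE 0.12, limma adjusted p 0.893) but was under the limit on all arrays. Krt79 differed by 0.23 and was above the limit on 1 diabetic array alone. Krt80, the type II keratin gene next to Krt7, differed by 0.23 (0.14 without diabetic replicate 2). Krt20 differed by -0.29 (-0.05 without normal replicate 3) and was above the limit on 1 normal array alone. The neighbour of Krt8 on its other side, Krt78, differed by -0.13 and was under the limit on all arrays. Other intermediate filament genes were 7 higher and 8 lower of 15 with a median of -0.01, and vimentin (Vim), the filament of mesenchymal cells, differed by -0.02. The 4 of smallest p, Prph, Nefm, Ina and Nes, had differences of 0.18, -0.18, -0.19 and 0.19 with limma adjusted p of at least 0.894. Without diabetic replicate 1 those of Ina and Nes were -0.05 and 0.04, with the mean of its probe sets Ina was at -0.04, and without normal replicate 3 Nefm was at -0.09. Prph and Nefm were under the limit on all arrays, and Nes was above it on 1 diabetic array alone.

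**Figure D5:**
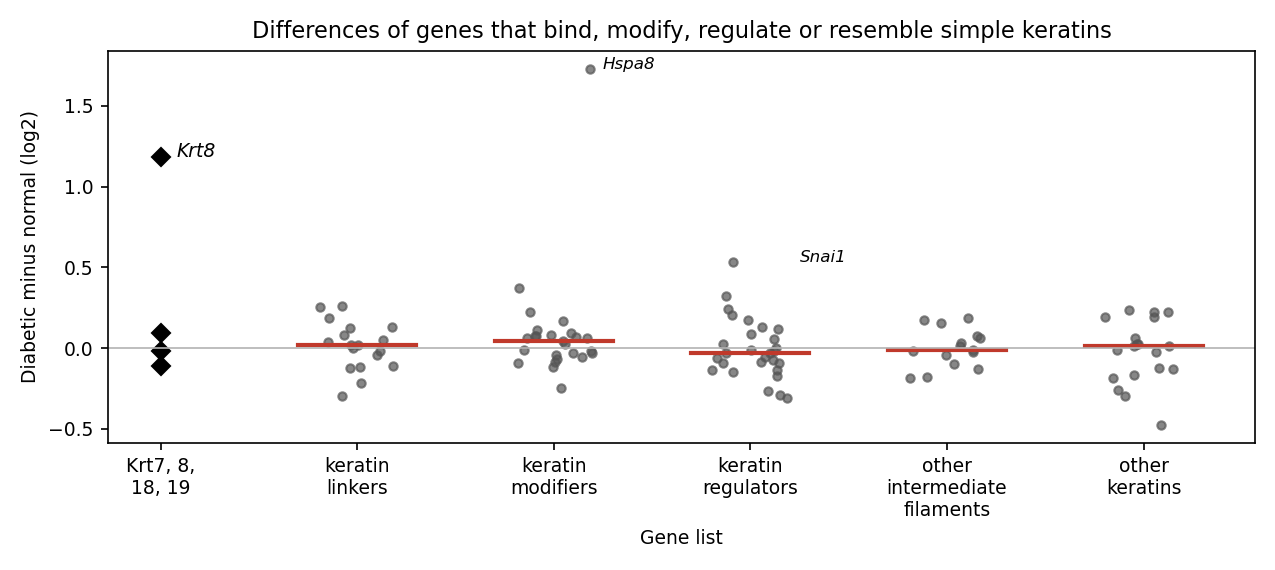
Diabetic minus normal difference (y axis, log2) of the 4 keratins (black diamonds) and of each measured gene in 5 lists of keratin linkers, modifiers and regulators and of other filament and keratin genes (x axis). Red bars are list medians, between -0.03 and 0.04. Krt8 (1.19) and Hspa8 (1.73) are the only genes plotted above 1, and Hspa8 falls to 0.78 with the mean of its probe sets.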

How the data were processed

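The authors deposited log2 signals of a mouse whole-transcript array, 1 value per probe set and sample. The base was inferred from the range of the values. Per the submitters' processing notes Partek was used; its version and the steps of background correction, scaling and summarization are not stated there. Names came from the array annotation: 21789 probe sets had 1 gene symbol, 1621 several, and 12146 were unlisted and stay unnamed. Symbols were updated by gene ID (GRCm38.p6, 21698 matched). The brightest of a gene's probe sets stood for it, giving 19938 genes with no filter. The group comparison used limma 3.58.1 under R 4.3.3 (lmFit, eBayes with trend, group as the only term, Benjamini-Hochberg adjustment), tested on simulated data. Differences are diabetic minus normal. The number of arrays, 3 per group, limits precision. Named genes were the 4 keratins, up to 4 genes of smallest p in each list, and the 5 genes nearest in pattern to Krt8 and to Krt18, with predicted genes, receptors and small RNAs left out. Others were named after their values were seen. Members and lists were chosen with earlier results of these data known. Alternatives covered scaling, array weights, variance model, dim-gene filters, probe set choice, the replicate block, the background limit and each array left out.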

Additional observations from a re-analysis of the deposited data

How the results depend on the processing

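No direction of a called value turned, since nothing was called. The number of genes at an adjusted p under 0.05 was 0 with all arrays and 0 to 2 with an array left out: 2 without diabetic replicate 2 and 1 without diabetic replicate 3. None of these was a keratin. Genes at an unadjusted p under 0.05 numbered 1109, but 363 among the 6350 genes above background on at least 3 arrays and 563 without the dimmer 50% of genes, where fewer genes were tested. With an array left out, differences ran from 0.52 to 1.62 for Krt8, -0.13 to 0.10 for Krt18, -0.20 to 0.04 for Krt7 and 0.05 to 0.18 for Krt19, and the excess of the Krt8 change from 0.65 to 1.53 over Krt18 and from 0.48 to 1.56 over Krt19. Other scalings and array weights left Krt8 between 1.19 and 1.21. The mean of probe sets could not change it, since Krt8 had 1 probe set. With the 99th percentile of receptor genes as the limit, 1 member (Krt8) instead of 3 was above it on all arrays, and with the median of all genes 4 were. Same-numbered arrays did not deviate together (correlations across genes of -0.02, 0.01 and 0.01), and diabetic replicate 1 correlated best with normal replicate 2. With the replicate block 0 genes were called and 1147 had an unadjusted p under 0.05, and the SE of the Krt8 difference was 0.31 in place of 0.45. Signal close to background limits what can be said of Krt18, Krt7 and Krt19.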

Other observations

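Krt7 and Krt19, a type II and type I pair of ducts, were also set side by side, a comparison that was not planned and was picked after the values were seen. The Krt7 change less the Krt19 change was -0.21 (SE between arrays 0.07, n = 3 per group). Relative to the normal mean it was -0.34, -0.12 and -0.16 on the diabetic and 0.04, less than 0.01 and -0.04 on the normal arrays. Krt19 was under the background limit on 5 of the 6 arrays, so the quantity compares a signal near background with another at background.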
